A study of Homo sapiens with 12 samples.

Results

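The ID genes (ID1, ID2, ID3 and ID4) and the genes of their E protein partners, TCF3 and TCF12, were followed in HUDEP-2 cells with and without a disruption of MBD2. These 6 genes, of 60483 in the deposited table, were taken by symbol, joined through their Ensembl identifiers. They were chosen by name and, in part, selected on the measured loss of ID4 in knockout libraries, so its knockout values are given as a description with no test, and the other 5 were tested. HUDEP-2 is a line of erythroid progenitors that was immortalized from human cord blood. Control cells (sgSCR, genotype given as WT) carried a scrambled guide RNA, and knockout cells (MBD2KO, genotype given as MBD2-/-) had lost MBD2, a protein that binds methylated DNA and recruits the NuRD corepressor complex. Before differentiation the cells were labelled early basophilic erythroblasts and grew in SFEM with SCF, EPO, DEX, DOX and L-Glu. After it they were labelled late basophilic erythroblasts and grew in IMDM with insulin, heparin, HTF, L-Glu, human AB serum, DOX and EPO, so that stage and medium cannot be told apart. All cells therefore received EPO and DOX. The labels name 3 days of differentiation for the RNA and 5 days for the culture. Each of the 4 groups had 3 libraries of total RNA depleted of ribosomal and globin RNA. The labels state neither whether the 3 were separate cultures nor whether the knockout is a clone, so a p-value here reflects no more than library-to-library spread, which may be technical.

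ID proteins hold a helix-loop-helix dimerization domain but lack the basic region that contacts DNA. They bind E proteins such as the products of TCF3 (E2A) and TCF12 (HEB) and keep them from forming DNA-binding dimers, either with themselves or with tissue-restricted partners such as TAL1. In erythroid cells TAL1 pairs with E proteins in a complex with GATA1, LMO2 and LDB1 that occupies many erythroid genes. ID genes are classical targets of BMP and SMAD signaling. ID4 is the family member best known from neural and mammary cells, and its promoter is a frequent site of CpG methylation in cancers.

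Library totals ran from 7667997 to 14047498 counts, and 17175 genes passed the filter on low counts, all 6 members among them. MBD2 itself was the check of the labels. Its level in CPM (counts scaled for depth with TMM factors) was 78.7, 77.7 and 75.3 in control and 22.7, 19.8 and 24.5 in knockout libraries before differentiation, and 61.4, 59.1 and 58.2 against 16.8, 16.1 and 14.6 after it. The 10 erythroid markers were all tested, and their summed level ran from 6750 to 8046, 6986 to 9164, 7896 to 8893 and 15725 to 18385 CPM in the control before, knockout before, control after and knockout after groups. The sum includes HBB and HBA1, although these libraries were depleted of globin RNA. In knockout cells 6 were called higher before and 9 after differentiation and none lower, where 9.07% and 16.8% of all genes were called higher. The part of this erythroid difference in the results below was not tested. Ribosomal RNA genes took 1.68 to 2.74% of counts in knockout libraries after differentiation and 0.394 to 1.29% in the other libraries, and the TMM factors of the former (0.883 to 0.931) lay below all others (1.01 to 1.07). In bulk samples, fewer cells of a type and less RNA per cell cannot be told apart.

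The stretches just upstream of ID4, the member lost in knockout cells, and ID1, whose knockout and control libraries overlapped, are shown because MBD2 binds methylated CG pairs. Capitals mark each CG, and each is written 5' to 3' on the gene's strand, from RefSeq promoter windows of GRCh38.p14 with bases of annotated exons left out. ID4 is shown from chr6:19837120-19837369 (plus strand) and ID1 from chr20:31605039-31605282 (plus strand).
ID4: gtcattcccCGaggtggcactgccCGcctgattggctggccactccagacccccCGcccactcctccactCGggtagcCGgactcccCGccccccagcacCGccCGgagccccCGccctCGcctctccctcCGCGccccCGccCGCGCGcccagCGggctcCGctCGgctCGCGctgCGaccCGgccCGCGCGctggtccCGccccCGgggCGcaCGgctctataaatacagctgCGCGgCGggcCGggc
ID1: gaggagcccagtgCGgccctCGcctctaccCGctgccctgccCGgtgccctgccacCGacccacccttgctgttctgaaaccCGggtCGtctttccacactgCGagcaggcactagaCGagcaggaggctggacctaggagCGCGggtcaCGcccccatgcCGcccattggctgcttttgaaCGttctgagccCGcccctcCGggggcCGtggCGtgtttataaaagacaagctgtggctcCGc
The ID4 stretch held 34 CG pairs in 250 bases, and 93.2% of the 35116 promoter windows of that length held fewer. The ID1 stretch held 19, and 65.4% held fewer, with a median over all windows of 11. The TCF3 window (chr19:1652616-1652865, minus strand) held 36 CG pairs, more than 95.1% of windows. The letters CANNTG, the E-box core (its own reverse complement), occurred once in the ID4 window, not in that of ID1, and in 61.8% of all windows. TATAAA on either strand occurred in both windows and in 10.7% of all, and in ID1 the matches on the 2 strands overlap. CCAAT on either strand occurred once in each and in 32.0% of all. The upstream windows of ID2, ID3 and TCF12 lie partly or wholly in annotated exons and are not shown. The ID2 window held 29 CG pairs and that of ID3 held 24, and 85.9% and 76.3% of windows held fewer. ID1 thus held the fewest CG pairs of the ID genes. DNA methylation was not measured in these samples, and a match of letters is not evidence of a bound site.

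ID4 (chr6:19837386-19840684, plus strand, hg38) was present in every control library and nearly absent from every knockout library. Before differentiation 208, 355 and 235 counts were found in the controls (19.5, 24.0 and 22.4 CPM) and 3, 0 and 2 in the knockouts (0.217, 0 and 0.181 CPM). All knockout libraries were at or under the floor of 3 counts, which is 0.217 to 0.271 CPM there. After differentiation the counts were 101, 121 and 101 in control (9.47, 8.79 and 10.6 CPM) and 2, 1 and 3 in knockout libraries (0.234, 0.108 and 0.422 CPM). The summed control to knockout ratio was 160 before differentiation (798 against 5 counts, exact 95% binomial interval 68.3 to 494) and 39.6 after it (323 against 6, 17.98 to 109), each scaled for depth. These intervals cover counting error only. The knockout thus held 0.625% and 2.53% of the control level. The fitted log2 fold changes were -7.20 ± 0.29 and -5.25 ± 0.33 (SE). No fold is given between the knockout groups, which both lie at the floor.

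In control cells, where ID4 could be measured at both stages, it fell 2.30-fold with differentiation (log2 change with a 95% interval of -1.52 to -0.88, edgeR quasi-likelihood test, adjusted p = 5.72e-06), from 21.98 ± 2.29 to 9.63 ± 0.929 CPM (SD, n = 3). The 2 control groups did not overlap. The control level of ID4 was thus lower at the stage where the other 3 ID genes were higher.

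Markers of other cell types were read beside this loss. Of 8 neural markers, 2 passed the filter and neither was called in either knockout comparison. Their sum was 3.62 to 4.22 CPM in control and 3.05 to 3.90 CPM in knockout libraries before differentiation, and 4.32 to 4.88 against 4.10 to 4.41 after it. SOX2, GFAP, OLIG2, NES, MAP2 and S100B were among those that did not pass. Of 8 mast cell and basophil markers, 7 were tested, 4 were called lower in knockout cells before differentiation and 6 after it, where 8.15% and 16.3% of all genes were called lower, and none was called higher. Their sum was 956 to 1010 CPM in control and 749 to 778 CPM in knockout libraries before differentiation, and 683 to 697 against 386 to 412 CPM after it. KIT, a receptor that erythroid progenitors also carry, made up 74.6 to 93.9% of this sum over the 12 libraries. Without KIT the sum was 222 to 242 CPM in control and 94.1 to 111.7 CPM in knockout libraries before differentiation, and 100.1 to 108.4 against 23.8 to 30.9 CPM after it. MS4A2, a chain of the IgE receptor and a single marker of this list, stood at 69.4 ± 9.26 CPM in the controls and at 0.994 ± 0.720 CPM in the knockouts before differentiation (SD, n = 3). It reached the filter's cutoff in every control library and in only 1 knockout library, so it was kept through the control cells, where it is high. Markers of 2 other lineages were higher before differentiation. Of 8 neutrophil and monocyte markers, 5 were tested, and all 5 were called higher in knockout cells before differentiation (9.07% of all genes) and none was called after it. Among them ELANE and PRTN3 reached the filter on low counts only in the knockout libraries before differentiation, and so had to be higher there. The sum over the list was 10.5 to 12.1 CPM in control and 27.2 to 36.4 CPM in knockout libraries before differentiation, and 4.21 to 5.25 against 4.84 to 8.30 CPM after it, with MPO and CSF3R too low to be tested. Of 8 megakaryocyte markers, 2 were tested, ITGA2B and TUBB1, of which both were called higher before and 1 after differentiation. Their list summed to 27.7 to 31.9 CPM in control and 40.4 to 62.7 CPM in knockout libraries before differentiation, and to 15.1 to 18.7 against 25.0 to 30.2 CPM after it, with PPBP at 0 in every library. The mast cell markers were lower together with ID4 and ID2, and the other 2 lists were higher before differentiation. The megakaryocyte sum was higher in knockout libraries after differentiation as well. The part of any of these 3 lists in these results was not tested. Lymphoid and stromal markers summed to at most 1.80 CPM in any library, and none of the 8 markers of either list passed the filter.

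**Figure D1:**
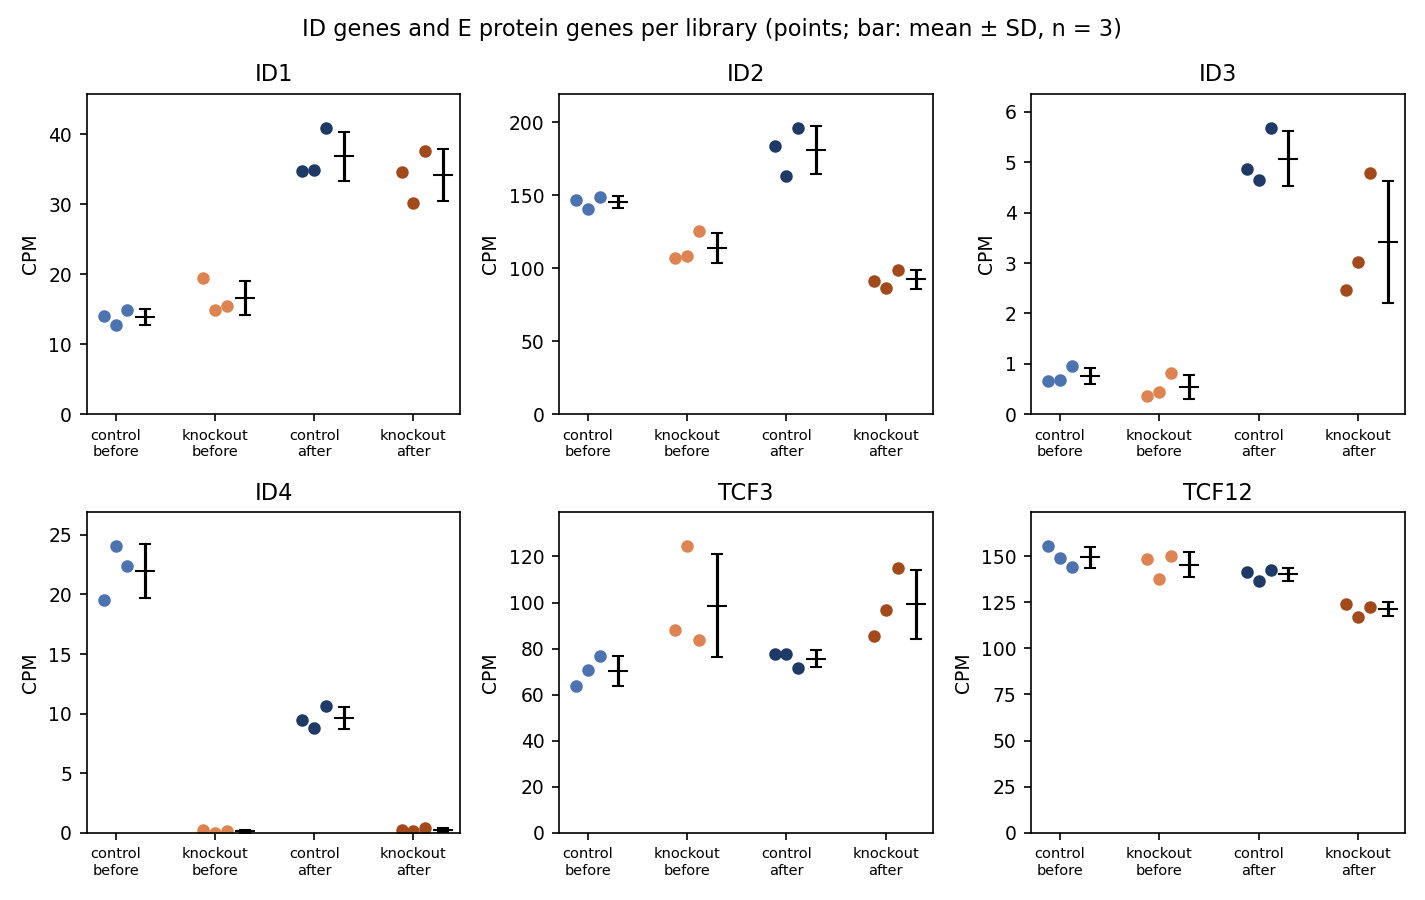
Level of each gene in CPM (vertical axis, from 0, own scale per panel) in the 12 libraries by group, with points for libraries and the bar for mean ± SD over 3. ID4 is at 19.5 to 24.0 CPM in control and at most 0.217 CPM in knockout libraries before differentiation, and the ID2 knockout libraries lie below the controls at both stages.

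Among the 5 tested members, ID2 was called lower and TCF3 higher in knockout cells before differentiation (1 in each direction, with 17.2% of all tested genes called, 9.07% higher and 8.15% lower). After differentiation TCF3 was called higher, and ID2 and TCF12 lower (3 of 5, with 33.1% of all genes called, 16.8% higher and 16.3% lower). The median log2 change of the 5 was -0.040 before and -0.21 after differentiation, beside -0.0043 and -0.0091 over all genes. ID1 and ID3 were not called at either stage. Calls are at an adjusted p under 0.05 over all genes tested.

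ID2 (chr2:8678845-8684453, plus strand), which besides E proteins binds the retinoblastoma protein, was the most abundant ID mRNA. Before differentiation it stood at 146.4, 140.6 and 148.5 CPM in the controls and at 107.1, 108.6 and 125.7 CPM in the knockouts. After differentiation it stood at 183.5, 163.4 and 196.2 CPM in the controls and at 91.6, 86.5 and 99.1 CPM in the knockouts. Every knockout library lay below every control library of its stage. The log2 fold change was -0.35 ± 0.08 before (SE, edgeR, adjusted p = 0.00503) and -0.97 ± 0.08 after differentiation (adjusted p = 7.87e-08), a level 1.28-fold and 1.96-fold lower. ID2 shares 38 of its 2205 exon bases with ID2-AS1 on the opposite strand, and the counting used no strand.

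The knockout effect on ID2 differed between the stages. The interaction contrast was -0.62 ± 0.11 on the log2 scale (SE, edgeR, adjusted p = 0.00172), and ID2 was the sole tested member called in it, where 13% of all genes were called (6.28% higher and 6.68% lower). In control cells ID2 rose with differentiation by 0.32 ± 0.08 (adjusted p = 0.00361), whereas in knockout cells it fell by 0.30 ± 0.08 (adjusted p = 0.00482). In neither line did the libraries of the 2 stages overlap. With libraries scaled by their totals alone, which moved the median change of all genes to -0.17 for the knockout effect after differentiation, ID2 gave -1.13 in that comparison and -0.75 in the interaction, both called.

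ID1 (chr20:31605283-31606515, plus strand), an immediate target of BMP signaling, stood at 14.1, 12.7 and 14.9 CPM in the controls and at 19.4, 14.9 and 15.5 CPM in the knockouts before differentiation. After it ID1 stood at 34.8, 35.0 and 40.9 CPM in the controls and at 34.6, 30.2 and 37.7 CPM in the knockouts. Knockout and control libraries overlapped at both stages, while the stages were far apart. The knockout effect was 0.27 ± 0.13 before (SE, adjusted p = 0.167, 95% interval 0.0027 to 0.53) and -0.11 ± 0.11 after differentiation (adjusted p = 0.487, -0.35 to 0.13). ID1 rose with differentiation by 1.41 ± 0.12 in control cells (edgeR, adjusted p = 6.63e-08) and by 1.03 ± 0.12 in knockout cells (adjusted p = 1.34e-06), and these rises were not called different (-0.38 ± 0.17, adjusted p = 0.158).

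ID3 (chr1:23557918-23559794, minus strand), best known from lymphocytes, was scarce before differentiation. It then had 7, 10 and 10 counts (0.657, 0.677 and 0.952 CPM) in control and 5, 5 and 9 counts (0.361, 0.449 and 0.814 CPM) in knockout libraries. After differentiation it stood at 4.88, 4.65 and 5.68 CPM in the controls and at 2.46, 3.01 and 4.78 CPM in the knockouts. The highest knockout library overlapped the controls at both stages. ID3 rose with differentiation by 2.72 ± 0.29 in control (SE, edgeR, adjusted p = 1.03e-06) and by 2.64 ± 0.34 in knockout cells (adjusted p = 5.32e-06). ID3 reached the filter's cutoff of 0.958 CPM in all 6 libraries after and in 1 of 6 before differentiation, so it was kept through the stage where it is high and had to differ between stages. With no filter these changes were 2.70 and 2.59, both called. The knockout effect was -0.50 ± 0.43 before (adjusted p = 0.498, 95% interval -1.42 to 0.42) and -0.58 ± 0.24 after differentiation (adjusted p = 0.072, -1.09 to -0.078). The latter was called without the third knockout library (-0.87, adjusted p = 0.0145) and with library totals alone (-0.74, adjusted p = 0.0249).

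TCF3 (chr19:1609290-1652605, minus strand) encodes the E12 and E47 proteins. It stood at 63.8, 70.6 and 76.6 CPM in the controls and at 87.9, 124.4 and 83.8 CPM in the knockouts before differentiation. After differentiation it stood at 77.8, 77.7 and 71.5 CPM in the controls and at 85.6, 96.8 and 115.1 CPM in the knockouts. All knockout libraries lay above the controls of their stage, with the second knockout library before differentiation far above the other two. The log2 fold change was 0.49 ± 0.13 before (SE, edgeR, adjusted p = 0.014) and 0.39 ± 0.13 after differentiation (adjusted p = 0.0299). The call before differentiation was lost without the first control library (0.42, adjusted p = 0.0684) or the second knockout library (0.29, adjusted p = 0.0747). The call after it was lost without any control library or without the second or the third knockout library (adjusted p from 0.0552 to 0.159), and with library totals alone (0.23, adjusted p = 0.214). TCF3 was not called with differentiation in control (0.11 ± 0.13, adjusted p = 0.545) or knockout cells (0.0058 ± 0.13, adjusted p = 0.975).

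TCF12 (chr15:56918623-57299281, plus strand) had the narrowest range of the members. It stood at 155.3, 149.1 and 144.0 CPM in the controls and at 148.3, 137.4 and 150.2 CPM in the knockouts before differentiation, which overlapped. After it the control libraries stood at 141.5, 136.3 and 142.3 CPM and the knockout libraries below them at 124.3, 117.1 and 122.5 CPM. The knockout effect was -0.040 ± 0.059 before (SE, adjusted p = 0.714) and -0.21 ± 0.06 after differentiation (edgeR, adjusted p = 0.0136). The latter call was lost without the first control library (adjusted p = 0.0527) or the second knockout library (adjusted p = 0.0631). With differentiation TCF12 fell by 0.26 ± 0.06 in knockout cells (adjusted p = 0.00141), and in control cells its change of -0.094 ± 0.059 was not called (adjusted p = 0.217), although the libraries did not overlap. The difference between these changes was not called (-0.17 ± 0.08, adjusted p = 0.223).

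**Figure D2:**
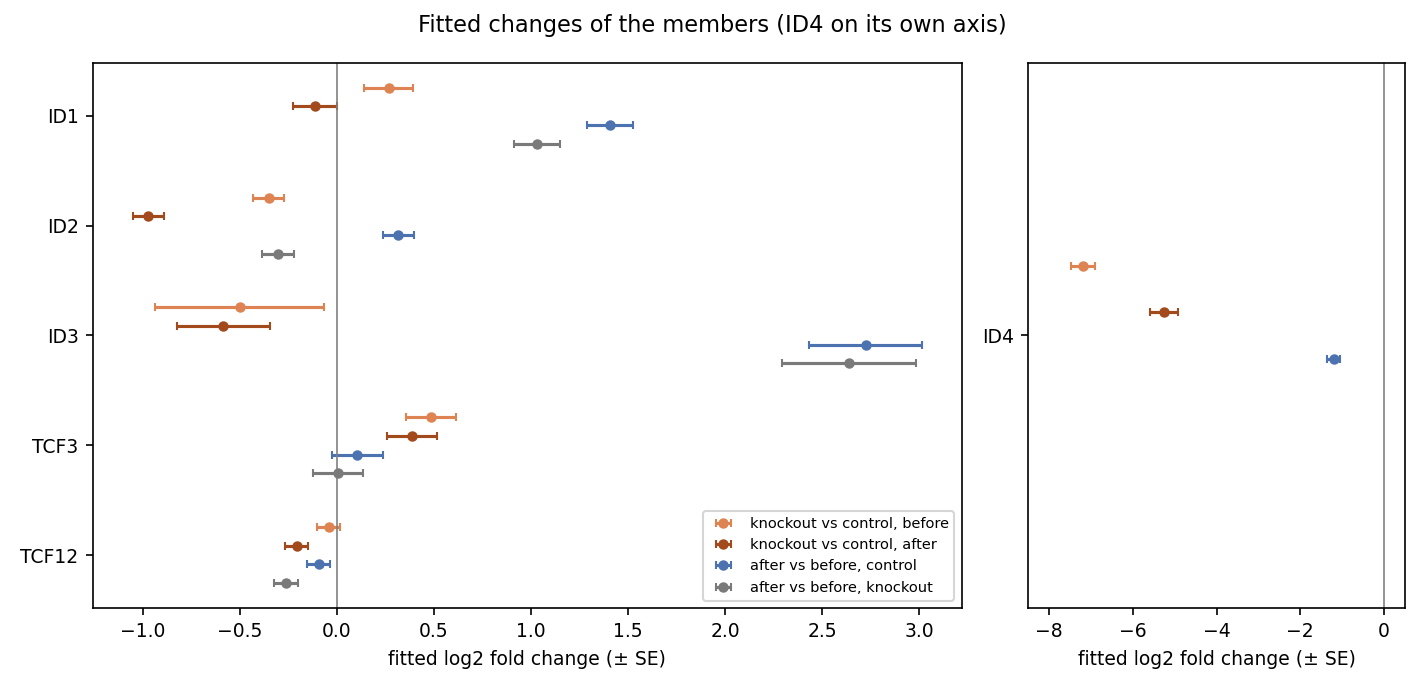
Fitted log2 fold changes (horizontal axis) with SE bars for the 5 tested members (left) and ID4 (right, own axis) in 4 comparisons, with ID4 left out for after against before in knockout cells. ID1 and ID3 are highest in the stage comparisons, and ID2 has opposite signs in control (0.32) and knockout cells (-0.30).

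Across the stage comparisons, 4 of 6 members were called in control cells (ID1, ID2 and ID3 higher, ID4 lower), where 43.8% of all genes were called (21.5% higher and 22.3% lower). In knockout cells 4 of the 5 tested members were called (ID1 and ID3 higher, ID2 and TCF12 lower), where 55.7% of all genes were called (28.0% higher and 27.7% lower). The median log2 change of the members was 0.21 in control and 0.0058 in knockout cells, beside 0.0058 and 0.028 over all genes. Both counts include ID3, which passed the filter through the later stage. The control and knockout stage comparisons share no library, but each shares its groups with the knockout comparisons above.

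Dividing CPM by exon length in kb gives an approximate ranking of the genes within a group. The length counts every annotated exon base of a gene (9446 for TCF12, 6080 for TCF3, 2205 for ID2 and 1233 for ID1). The transcripts in use may be shorter, which would understate a gene's level per kb. Ranks of genes against each other, and the size of the ratios below, depend on this choice. In control cells before differentiation ID2 stood highest at 65.8 ± 1.87 CPM per kb (SD, n = 3), followed by TCF12 at 15.8 ± 0.599, TCF3 at 11.6 ± 1.06, ID1 at 11.3 ± 0.906, ID4 at 9.38 ± 0.977 and ID3 at 0.424 ± 0.092. TCF3 and ID1 overlapped in that order, and ID1 and ID4 came close without overlap. In knockout cells before differentiation ID2 stood at 51.6 ± 4.68 CPM per kb, and TCF3 (16.2 ± 3.67), TCF12 (15.4 ± 0.730) and ID1 (13.5 ± 1.99) overlapped each other, with ID3 (0.301 ± 0.134) and ID4 (0.057 ± 0.050) far below. After differentiation the order in control cells was ID2 (82.1 ± 7.51), ID1 (29.9 ± 2.84), TCF12 (14.8 ± 0.348), TCF3 (12.4 ± 0.597), ID4 (4.11 ± 0.396) and ID3 (2.82 ± 0.302), with no overlap between neighbours. In knockout cells it was ID2 (41.9 ± 2.88), ID1 (27.7 ± 3.03), TCF3 (16.3 ± 2.45), TCF12 (12.8 ± 0.396), ID3 (1.90 ± 0.674) and ID4 (0.109 ± 0.067), again without overlap. Per kb, TCF3 and TCF12 thus stood in opposite order in the control and knockout cells of the later stage. In CPM, TCF12 stood above TCF3 in both, at 140.0 against 75.7 in control and 121.3 against 99.2 in knockout cells. The change of order therefore depends on the lengths used.

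The makeup of the ID mRNA pool, taken as the summed CPM per kb of the 4 ID genes, differed between groups. ID4 made up 10.8 ± 1.25% of the pool in control cells before differentiation and 3.45 ± 0.037% after it (SD, n = 3), against 0.084 ± 0.075% and 0.147 ± 0.080% in knockout cells. ID2 made up 75.7 ± 0.882% in control and 78.8 ± 3.23% in knockout cells before differentiation, and 69.0 ± 1.23% and 58.6 ± 1.28% after it. ID1 made up 12.97 ± 0.701% and 20.6 ± 3.35% before differentiation, and 25.2 ± 1.149% and 38.6 ± 1.06% after it. ID3 did not exceed 3.40% in any library. The lowest knockout share of ID1 lay above the highest control share at each stage, on a pool that was itself smaller. Shares within a pool are not independent of each other.

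The ID pool summed to 86.9 ± 2.45 CPM per kb in control and 65.4 ± 4.31 in knockout cells before differentiation, and to 118.9 ± 10.6 and 71.6 ± 6.45 after it. Without ID4 the sums were 77.6 ± 2.83, 65.4 ± 4.27, 114.8 ± 10.2 and 71.5 ± 6.39 in the same order. Control and knockout libraries of the same stage thus stayed apart without the gene chosen for its loss. Across stages they did not, as the third knockout library after differentiation (78.2) lay within the controls before it (74.5 to 80.0). The summed level of TCF3 and TCF12 was 27.4 ± 0.459 and 31.6 ± 2.95 CPM per kb before differentiation, and 27.3 ± 0.484 and 29.2 ± 2.44 after it. The ratio of ID to E protein mRNA was 3.21, 3.09 and 3.22 in control and 2.14, 1.76 and 2.36 in knockout libraries before differentiation. After differentiation the ratio was 4.25, 4.00 and 4.84 in control and 2.61, 2.31 and 2.46 in knockout libraries. Every knockout library had a lower ratio than every control library of either stage. With ID1 to ID3 alone the group means were 2.83 ± 0.10 and 2.09 ± 0.30 before, and 4.21 ± 0.42 and 2.46 ± 0.15 after differentiation. No p is given for these sums, whose members were chosen with results known, and mRNA ratios do not measure protein.

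**Figure D3:**
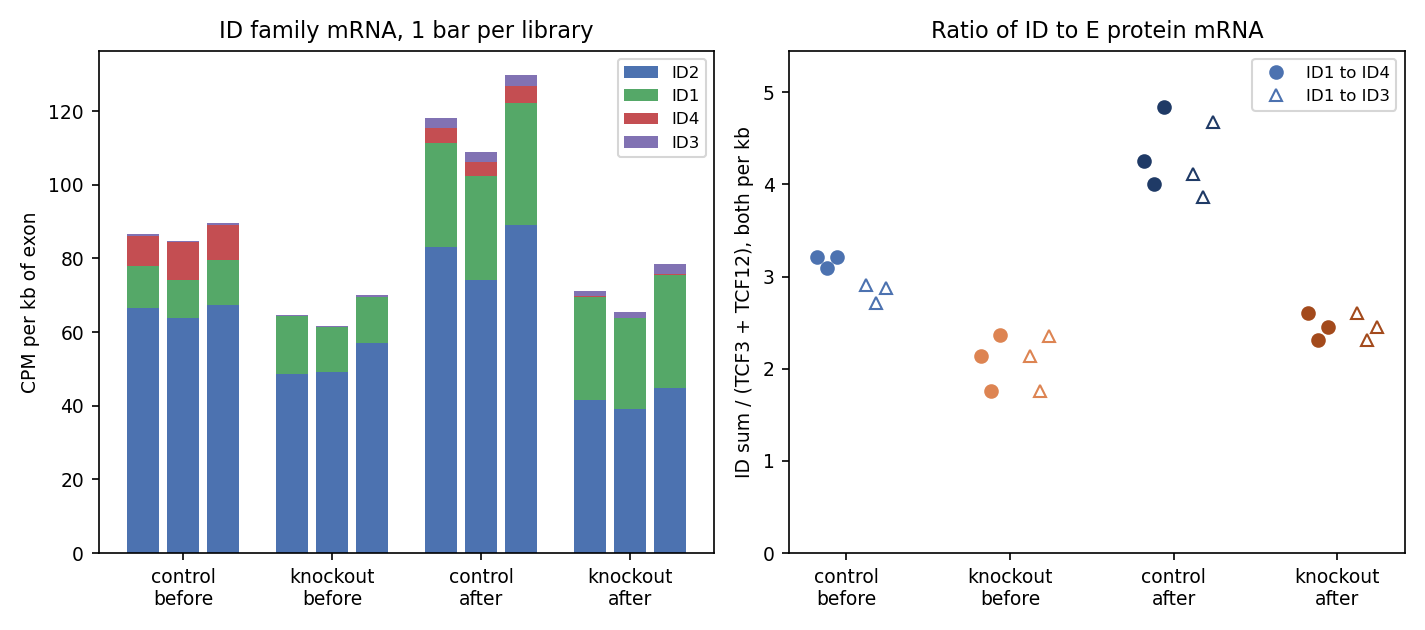
Left, CPM per kb of exon of the 4 ID genes stacked for each library, and right, the ratio of the ID sum to TCF3 plus TCF12 per library with (circles) and without (triangles) ID4. The ID4 segment is visible in control bars only, and all knockout ratios (at most 2.61) lie below all control ratios with ID4 (at least 3.09).

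The remaining E protein gene, TCF4 (chr18:55222331-55664787, minus strand), was lower in knockout cells at both stages. It stood at 67.4, 64.5 and 66.4 CPM in the controls and at 42.2, 36.8 and 40.6 CPM in the knockouts before differentiation, and 32.2, 29.3 and 28.7 against 20.2, 17.2 and 16.9 CPM after it. The log2 fold change was -0.73 ± 0.08 before (SE, edgeR, adjusted p = 3.99e-06) and -0.73 ± 0.09 after differentiation (adjusted p = 9.26e-06), and the groups did not overlap. TCF4 lies on the chromosome of MBD2, whose 265 tested genes had a median log2 change of -0.48 before and -0.38 after differentiation. The part of this chromosome-wide shift in the value for TCF4 was not tested. Over its 24564 annotated exon bases TCF4 stood at 2.69 CPM per kb in control cells before differentiation. Adding it to the E protein sum left every knockout ratio below every control ratio. With so long a length TCF4 has little weight in that sum, so it could hardly move the ratios. A shorter length would give TCF4, which was lower in knockout cells, more weight, and was not tried.

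Of 35 genes in the list of TCF4 and tissue-restricted basic helix-loop-helix partners of E proteins, 7 were tested. In knockout cells 1 was called higher and 3 lower at each stage, where 9.07% and 8.15% of all genes were called higher and lower before differentiation and 16.8% and 16.3% after it. The median log2 change was -0.15 before and -0.13 after differentiation. The gene called higher was TAL1, the erythroid partner of E proteins, at 131.9 ± 5.78 against 154.9 ± 4.01 CPM before and 181.6 ± 9.17 against 330.1 ± 18.9 CPM after differentiation (control against knockout, SD, n = 3). Its log2 change was 0.23 ± 0.06 before (SE, adjusted p = 0.0194) and 0.86 ± 0.06 after differentiation (adjusted p = 1.82e-08), and the 2 differed by 0.63 ± 0.09 (edgeR interaction, adjusted p = 0.000245). The call before differentiation was lost without the first or second control library or the first knockout library (adjusted p up to 0.11), without the filter on low counts (0.0553) and with library totals alone (0.0546). SCX, a factor of tendon progenitors, and OLIG1, a factor of oligodendrocytes, were called lower at both stages from few counts. SCX held 61 counts in control and 29 in knockout libraries before differentiation, and 53 and 13 after it, and it reached the filter's cutoff in control libraries only. OLIG1 held 72 and 33 counts before and 23 and 0 after differentiation. With 3 counts over the group put in place of the 0, the depth-scaled ratio of control to knockout after differentiation was 5.63. This ratio has no interval and is not a bound. Before differentiation the SCX call was lost without the second control library. That of OLIG1 was lost without the first or the third control library or the first or second knockout library, and DESeq2 called neither there (adjusted p = 0.135 and 0.158).

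All 15 genes of the TAL1 complex and its cofactors were tested. In knockout cells 2 were called higher and none lower before differentiation, and 6 higher and 3 lower after it, with median log2 changes of 0.17 and 0.15. Over all genes 17.2% were called before differentiation, a larger share than in this list, and 33.1% after it. RUNX1T1, which encodes the ETO corepressor, had the largest change of this list at both stages, from 0.640 ± 0.226 to 7.29 ± 1.17 CPM before and from 0.561 ± 0.238 to 15.8 ± 0.817 CPM after differentiation. Its log2 change was 3.55 ± 0.26 before (SE, edgeR, adjusted p = 4.14e-08) and 4.86 ± 0.25 after it (adjusted p = 2.51e-10). RUNX1T1 reached the filter's cutoff in knockout libraries only, so it had to be higher there. GATA2, a progenitor factor that is also on the mast cell marker list, fell after differentiation from 26.5 ± 1.88 to 10.3 ± 1.46 CPM in knockout against control cells (-1.38 ± 0.15, adjusted p = 1.26e-06). LMO4, a LIM domain adaptor, rose at that stage from 21.3 ± 1.601 to 35.1 ± 0.521 CPM (0.71 ± 0.09, adjusted p = 1.03e-05). With differentiation 8 of the 15 were called higher and 2 lower in control cells, and 10 higher and 1 lower in knockout cells, where 43.8% and 55.7% of all genes were called.

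The HES, HEY and BHLHE genes encode helix-loop-helix repressors that bind DNA themselves. Of 12 listed, 6 were tested, and 2 were called higher and 1 lower in knockout cells before differentiation, and 2 higher and 2 lower after it, beside 17.2% and 33.1% of all genes called. Their median log2 change was 0.33 before and 0.14 after differentiation. HES6, which antagonizes HES1, rose from 96.7 ± 3.36 to 129.0 ± 18.2 CPM before (0.42 ± 0.09, SE, edgeR, adjusted p = 0.00346) and from 243.6 ± 17.2 to 329.2 ± 19.4 CPM after differentiation (0.43 ± 0.09, adjusted p = 0.000955). HES5, a Notch target, rose before differentiation from 2.10 ± 0.122 to 4.55 ± 1.11 CPM (1.10 ± 0.23, adjusted p = 0.00254). After differentiation the HES5 libraries of the 2 lines overlapped, at 6.97 ± 1.00 against 6.41 ± 1.35 CPM. HES2 fell after differentiation from 16.7 ± 1.34 to 10.7 ± 1.23 CPM (-0.66 ± 0.13, adjusted p = 0.000861). HES1 was called lower at both stages, with -0.38 ± 0.13 (adjusted p = 0.0452) and -0.44 ± 0.14 (adjusted p = 0.0198). Before differentiation that call was lost on removal of any library of the comparison, without the filter, with the compared groups fitted alone and with DESeq2 (adjusted p up to 0.145). After it, the call was lost without the first or second control or the first or second knockout library (adjusted p up to 0.109). BHLHE40, a repressor with a stress and clock role, was called higher after differentiation (0.44 ± 0.15, adjusted p = 0.0355). Its call was lost without any control library, without the second or the third knockout library, with DESeq2 and with library totals alone (adjusted p up to 0.179).

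Of 29 genes of the BMP and SMAD pathway, which induces ID genes, 16 were tested: 1 of 7 ligands, 6 of 8 receptors, all 4 signal carriers and 5 of 10 inhibitors. In knockout cells 2 were called higher and 3 lower before differentiation, and 3 higher and 2 lower after it, with median log2 changes of -0.10 and 0.054. After differentiation these 5 of 16 are near the 33.1% of all genes called, and before it 17.2% of all genes were called. The ligand was not called in either comparison. Among the receptors, ACVR2B, a type II activin receptor, rose before differentiation from 18.02 ± 0.527 to 26.2 ± 1.42 CPM (0.54 ± 0.10, SE, edgeR, adjusted p = 0.000878). After it ACVR2B was called (0.42 ± 0.12, adjusted p = 0.0154), but not without the second control or the first or second knockout library (adjusted p up to 0.0759), nor without the filter (0.0825), with DESeq2 (0.0546) or with library totals alone (0.115). Among the carriers, SMAD1, which BMP receptors phosphorylate, fell from 9.39 ± 0.374 to 5.31 ± 0.334 CPM before (-0.82 ± 0.14, adjusted p = 0.000438) and from 6.18 ± 0.555 to 2.86 ± 0.517 CPM after differentiation (-1.10 ± 0.17, adjusted p = 0.000106). SMAD4, the shared partner of SMAD1, lies on chromosome 18 and was lower before differentiation (-0.48 ± 0.07, adjusted p = 8.35e-05), a value equal at this precision to the median of its chromosome. After differentiation it was not called (-0.043 ± 0.069, adjusted p = 0.677), while the median of chromosome 18 was -0.38.

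Among the inhibitors of the pathway, SMAD6, itself induced by BMP signals, was higher in knockout cells. It held 1 count in the control and 17 in the knockout libraries before differentiation, a depth-scaled ratio of 16.9 with an exact 95% binomial interval of 2.66 to 708. After differentiation it measured 0.640 ± 0.212 CPM in control and 3.77 ± 0.107 CPM in knockout libraries (log2 change 2.52 ± 0.28, SE, edgeR, adjusted p = 2.50e-06). It reached the filter's cutoff in the latter libraries only, so it had to be higher there. SKIL, a SMAD corepressor, rose after differentiation from 36.9 ± 4.14 to 52.0 ± 2.95 CPM (0.50 ± 0.11, adjusted p = 0.00259). Calls in this pathway went in both directions, with SMAD1 lower at both stages, while ID1 was not called at either. The higher SMAD6 rests on few counts before differentiation. After it, SMAD6 was kept through the group where it is high, so its direction adds nothing to the fall of SMAD1. Whether any of these changes bears on the ID genes was not tested.

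The 5 genes for partners and turnover of ID proteins were all tested. In knockout cells 1 was called higher and 1 lower before differentiation, and 2 higher and none lower after it, with median log2 changes of -0.17 and 0.040, beside 17.2% and 33.1% of all genes called. FZR1, an activator of the anaphase-promoting complex that can target ID proteins for degradation, rose before differentiation from 35.1 ± 4.09 to 53.4 ± 5.76 CPM (0.61 ± 0.11, SE, edgeR, adjusted p = 0.00108). After it FZR1 was called (0.38 ± 0.12, adjusted p = 0.0206), but not without the first or the third control or the third knockout library (adjusted p up to 0.123), nor with library totals alone (0.186). RBL2, which encodes the pocket protein p130, fell before differentiation from 112.3 ± 2.11 to 93.3 ± 4.50 CPM (-0.27 ± 0.06, adjusted p = 0.00554). USP1, a deubiquitinase that stabilizes ID proteins, was called higher after differentiation (0.24 ± 0.08, adjusted p = 0.0205). Its call was lost without the first or second control or the first or second knockout library (adjusted p up to 0.0802), without the filter (0.0542) and with library totals alone (0.373).

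The 7 cyclin-dependent kinase inhibitor genes, several of which E proteins activate and ID proteins oppose, were all tested. In knockout cells 2 were called higher before and 5 after differentiation, and none lower at either stage, with median log2 changes of 0.39 and 0.62. Of all tested genes 9.07% and 16.8% were called higher in these comparisons. CDKN1C (p57) rose from 2.35 ± 0.240 to 6.11 ± 0.572 CPM before (1.38 ± 0.18, SE, edgeR, adjusted p = 2.49e-05) and from 4.19 ± 0.341 to 12.2 ± 1.75 CPM after differentiation (1.53 ± 0.16, adjusted p = 7.15e-07). CDKN2B (p15) rose from 18.6 ± 0.908 to 24.3 ± 1.28 CPM before (0.39 ± 0.08, adjusted p = 0.0020) and from 47.5 ± 1.93 to 101.9 ± 3.86 CPM after differentiation (1.10 ± 0.07, adjusted p = 2.10e-09). CDKN1B (p27) rose after differentiation from 58.0 ± 2.06 to 93.3 ± 3.35 CPM (0.69 ± 0.07, adjusted p = 7.21e-07), and CDKN2C (p18) at that stage by a log2 change of 0.45 ± 0.07 (adjusted p = 7.84e-05). With differentiation 4 of the 7 were called higher in control and 6 in knockout cells, beside 21.5% and 28.0% of all genes. Both counts include CDKN1A, which reached the filter's cutoff only in libraries after differentiation, so it had to be higher there.

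Of 12 targets of E proteins in lymphoid cells, 3 were tested and none was called in either knockout comparison, where 17.2% and 33.1% of all genes were called. So few genes cannot be told apart from these shares. RAG1, RAG2 and FOXO1 reached the filter's cutoff in 9, 7 and 10 of the 12 libraries. Before differentiation FOXO1 was lower without overlap (-0.81 ± 0.32, SE, edgeR, adjusted p = 0.0998), while the RAG1 and RAG2 libraries overlapped. Their median log2 changes were -0.28 before and -0.065 after differentiation.

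**Figure D4:**
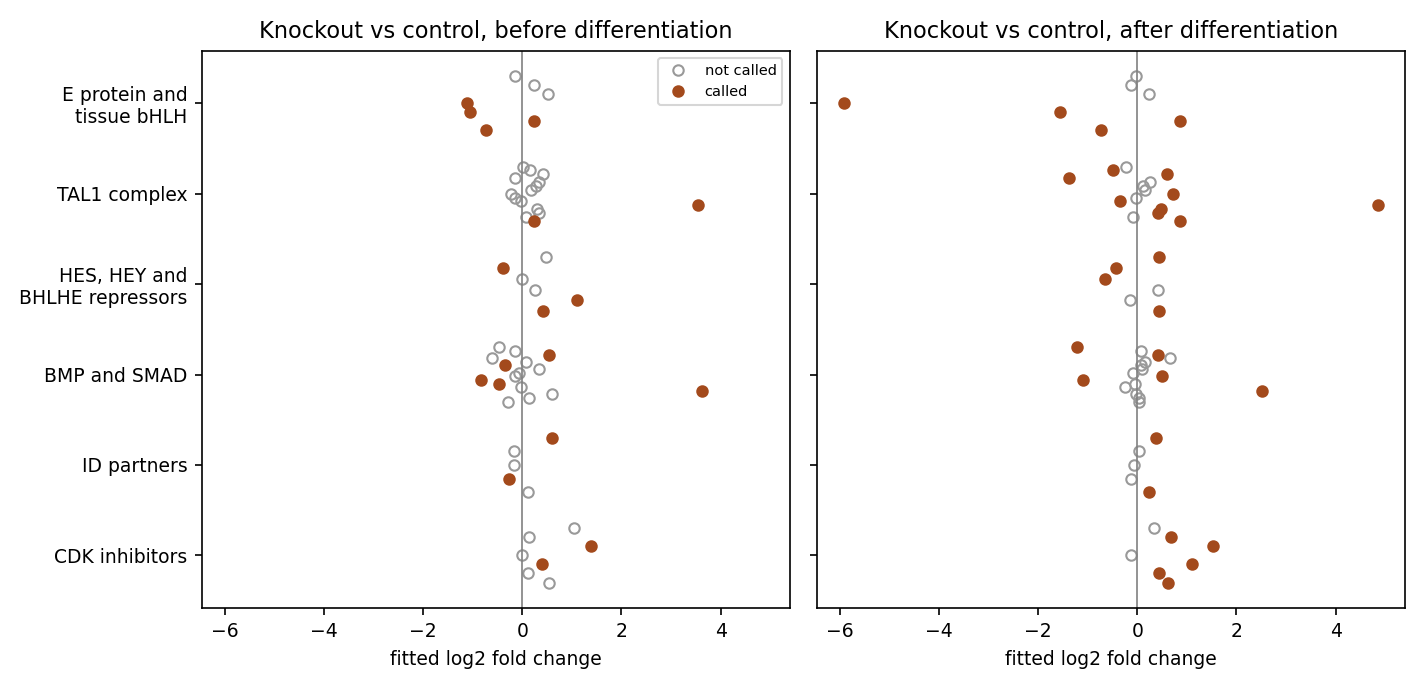
Fitted log2 fold change (horizontal axis, the same in both panels) of each tested gene of 6 lists in knockout against control cells, before (left) and after differentiation (right), with filled points for genes called and open points for the others. The points farthest right are SMAD6 and RUNX1T1 on the left and RUNX1T1 on the right, no CDK inhibitor is called lower, and the point farthest left is OLIG1, fitted from 0 counts in knockout libraries.

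The protein-coding genes nearest each member were found by the root mean square distance between log2 CPM profiles over 12 libraries, each gene centred on its mean, among 9602 or 9603 genes whose mean log2 CPM reached 2. This is a description, since the points share libraries and groups. ID2 was nearest to FAM89A (0.096), MYB (0.112), a progenitor transcription factor, and AGAP1 (0.122). MYB measured 391.6 ± 6.51 and 306.5 ± 19.3 CPM in control and knockout cells before and 441.7 ± 10.8 and 259.3 ± 4.39 CPM after differentiation, the same order of groups as ID2. ID4 had RYR3 (1.19), SCN2A (1.32) and PLEKHA5 (1.497) nearest, at larger distances than any other member. RYR3, a calcium release channel, measured 89.6 ± 5.12 and 8.39 ± 0.802 CPM before and 40.4 ± 1.92 and 4.36 ± 0.908 CPM after differentiation, lower in knockout cells and lower after differentiation in control cells like ID4, but not at the floor. ID1 was nearest to TPM1 (0.132), ATN1 (0.150) and GRB10 (0.154), and ID3 to IER3 (0.249), APOC1 (0.439) and GADD45G (0.446), all higher after differentiation in both lines. TCF3 was nearest to DEAF1 (0.085), HK1 (0.093) and ANAPC11 (0.094), and TCF12 to TRIM37 (0.042), METTL2B (0.043) and PSMD14 (0.045). With a prior count of 0.5 in place of 2, IER3 fell below the level minimum, GADD45B entered for ID3, and KCTD15 took the place of PLEKHA5 for ID4.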

How the data were processed

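Total RNA from 12 libraries (4 groups of 3) was sequenced. The deposited values are raw counts of read pairs per gene. Per the file headers, the authors counted with featureCounts 1.4.6-p4 over exons of GENCODE release 22 (hg38), with no strand option. Per the submitters' processing notes the version was 1.2.6, with Trimmomatic, FastQC, Subread 1.6.2 and edgeR 3.18.1 also named. Symbols were joined from GENCODE release 29 for 56753 of 60483 genes.

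Genes were filtered (filterByExpr, 17175 kept), scaled by TMM and tested in edgeR 4.0.16 (R 4.3.3) with glmQLFit on group means over all 12 libraries and two-sided quasi-likelihood F-tests. The common biological coefficient of variation was 0.0890, and p-values were Benjamini-Hochberg adjusted over all genes tested. The SE is the size of the log2 change over the square root of F, and CPM use TMM-scaled library sizes. The pipeline was tested on simulated data. Library totals (7667997 to 14047498) set the floor of 3 counts at 0.203 to 0.422 CPM.

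Members, lists and tests were chosen with earlier results of these data known. Named genes were the members, MBD2, up to 4 called genes of smallest adjusted p per list and knockout comparison, and the 3 nearest profiles per member. Single cell type markers such as MS4A2 were named outside this rule. TCF4 was added to the sums as the remaining E protein gene, and BMPR2, CDKN2C and RUNX1 were named by the same rule in the interaction. Same-numbered libraries were not treated as paired (correlations of deviations -0.018 to 0.24, not above 0.1 in every pair). Differently numbered libraries were not set beside these values, so whether the libraries pair was not settled. Alternatives were other scalings, no filter, DESeq2 1.42.0, only the groups compared, a replicate block, another prior count and leaving out each library. Promoter sequences were from RefSeq (GRCh38.p14), which gave windows for all 6 members. All other sequence and methylation data were not used here.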

Additional observations from a re-analysis of the deposited data

Results flagged for a closer look

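The knockout effect on 14 genes named from the members and lists differed between the stages by the edgeR interaction contrast (log2, after minus before, two-sided, adjusted over all genes), where 13% of all genes were called. ID2 gave -0.62 ± 0.11 (SE, adjusted p = 0.00172) and was called under every alternative, as were the next 6 genes. TAL1 gave 0.63 ± 0.09 (adjusted p = 0.000245), LMO4 0.95 ± 0.13 (0.00012) and GATA2 -1.23 ± 0.19 (0.000376). CDKN2B gave 0.71 ± 0.10 (0.000267) and CDKN1B 0.55 ± 0.10 (0.00122). HES5 gave -1.25 ± 0.30 (0.011).

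The other differences lost their call under some alternatives. SMAD4 gave 0.43 ± 0.10 (adjusted p = 0.00662), lost with library totals alone (0.0649). SKIL gave 0.64 ± 0.17 (0.0217), lost with library totals alone and without the first control library before, the second control library after, or the first or second knockout library after differentiation (up to 0.0595). HES2 gave -0.65 ± 0.18 (0.0208), lost without the third knockout library before, the first or second control library after, or the second knockout library after differentiation (up to 0.0735). BMPR2, a type II BMP receptor, gave 0.42 ± 0.13 (0.0422), lost with library totals alone, and without the first or second control or the second or the third knockout library before, or the second control or any knockout library after differentiation (up to 0.157). CDKN2C gave 0.33 ± 0.10 (0.0343), lost with library totals alone, without the low-count filter, with DESeq2, and without the third control or the third knockout library before, or the first or second control or any knockout library after differentiation (up to 0.23). RUNX1, a partner of the TAL1 complex, gave -0.34 ± 0.10 (0.043), lost without the low-count filter and without any single library other than the first control library before differentiation (up to 0.144). OLIG1 gave -4.80 ± 1.36 (0.0307), a fitted value with 0 counts in the knockout libraries after differentiation and so no measure of size. Its call was lost without the second control or the third knockout library before, or the first or the third control or any knockout library after differentiation (up to 0.0866), and DESeq2 gave no adjusted p.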

How the results depend on the processing

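Of the alternative values computed, 968 kept their direction and side of the threshold, 12 reversed, 107 lost a call, 5 gained one and 13 moved. A value moved if it shifted by more than the replicate spread or, for a count of genes called, by more than a set ratio. None of the reversed values was called. The change of TCF3 with differentiation in knockout cells became -0.0050 with DESeq2's size factors in edgeR, -0.18 with library totals alone, -0.045 without the filter and -0.028 with DESeq2, and ran from -0.11 to 0.21 on leaving out 1 library. The interaction of ID3 ran from -0.37 to 0.31 and that of TCF3 from -0.22 to 0.10 on leaving out 1 library. Without the first control library before differentiation the interaction of ID3 was 0.0022. On leaving out 1 library, 1 to 2 members were called in the knockout comparison before differentiation and 1 to 3 after it. With library totals alone 3 members were called in the interaction, ID1 (-0.51, adjusted p = 0.0495) and TCF12 (-0.30, adjusted p = 0.0195) besides ID2. That scaling moved the share of calls that were higher to 44.4% and 27.6% for the knockout effect before and after differentiation, 42.6% and 35.1% for differentiation in control and knockout cells, and 23.1% for the interaction. With a replicate block, 3491, 6137, 8030, 9992 and 2728 genes were called in these 5 comparisons, against 2958, 5687, 7529, 9563 and 2227 without it, and ID3 became called after differentiation (-0.60, adjusted p = 0.0248). The block changed no other member's call. By the labels, same-numbered libraries share only that number. Depth limits ID4 in knockout libraries and ID3 before differentiation, both of few counts.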
